A study of Mus musculus with 4 samples.

Results

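Accessible chromatin was examined at 10 genes of lipid droplets and lipolysis. The tissue was visceral fat from outbred CD-1 mice that were 8 weeks old. The genes were Plin1, Plin2, Plin4, Cidec, Lipe, Pnpla2, Abhd5, Mgll, G0s2 and Fabp4, chosen by name from 21000 coding genes with a curated RefSeq transcript. In ATAC-seq a transposase cuts open chromatin, and a peak marks a stretch where reads pile up above the local background. There were 4 libraries, 2 per group. The dams of the control lineage received sesame oil, and those of the bisphenol A (BPA) lineage were injected with 50 mg/kg of the plasticiser BPA from embryonic day 7.5 to 13.5. The animals assayed were untreated descendants of these dams. Because the labels and the study's methods disagree on the generation, none is given here. Tissue came from 4 mice, which makes 1 mouse per library. The p-values below combine the spread between these few animals with a spread estimated over all promoters or regions fitted. Neither sex, litter nor batch was labelled, and whole tissue was used.

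Adipocytes keep triacylglycerol in droplets coated by perilipins, and the coat controls which lipases reach the lipid. Lipolysis removes the fatty acids in sequence: adipose triglyceride lipase, encoded by Pnpla2, takes the first, hormone-sensitive lipase, encoded by Lipe, the second, and monoacylglycerol lipase, encoded by Mgll, the last. Abhd5 activates the first of these lipases and G0s2 inhibits it, while Fabp4 carries fatty acids inside the cell. In resting fat cells perilipin 1 holds ABHD5 back from the lipase, and phosphorylation by protein kinase A releases it. Peaks in these loci show accessible chromatin and do not measure transcription.

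Every strength was read within its own library, because the lists differed in depth. Peaks were ranked by −log10 q-value and a rank was written as a percent of the list, with low values for strong peaks. The 4 lists held 72375 to 98060 peaks, with median widths of 456 to 780 bp, and BPA 2 had both the most and the widest. At the 10 promoters the number of fragments piled up at the summit, solved from the deposited fold and p-value, ranged from 26 to 105 for control 1 and from 29 to 80 for control 2. It ranged from 31 to 157 for BPA 1 and from 63 to 517 for BPA 2. Promoters of all 7 adipocyte marker genes checked carried a peak in every library, and those of the 3 hepatocyte markers carried none. Of 5 endothelial marker promoters, 2, 2, 5 and 5 were open in control 1, control 2, BPA 1 and BPA 2, with Pecam1, Cdh5 and Emcn open only in the BPA libraries. Of 6 macrophage and leukocyte markers, 3, 2, 3 and 3 were open. The part that cell makeup had in any result below was not tested, and in whole tissue more cells of a type and more open chromatin per cell cannot be told apart.

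All 10 promoters, taken as 500 bp either side of any curated start site, carried a peak in all 4 libraries. Among all coding genes 57.9% did. No member promoter was open in 1 group only. The corresponding shares of all coding genes were 2.51% for both BPA libraries and no control library, and 0.433% for both control libraries and no BPA library. Their strength varied widely, and 3, 6, 6 and 7 of the 10 ranked in the best 25% of the list of control 1, control 2, BPA 1 and BPA 2. Their median rank was 44.6% and 22.0% of the list in controls 1 and 2, and 15.8% and 11.9% in BPA 1 and 2. For all coding promoters open in the 4 libraries the medians were 8.46%, 9.77%, 8.44% and 5.94%. In each library the median member promoter was weaker than the median open promoter.

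**Figure D1:**
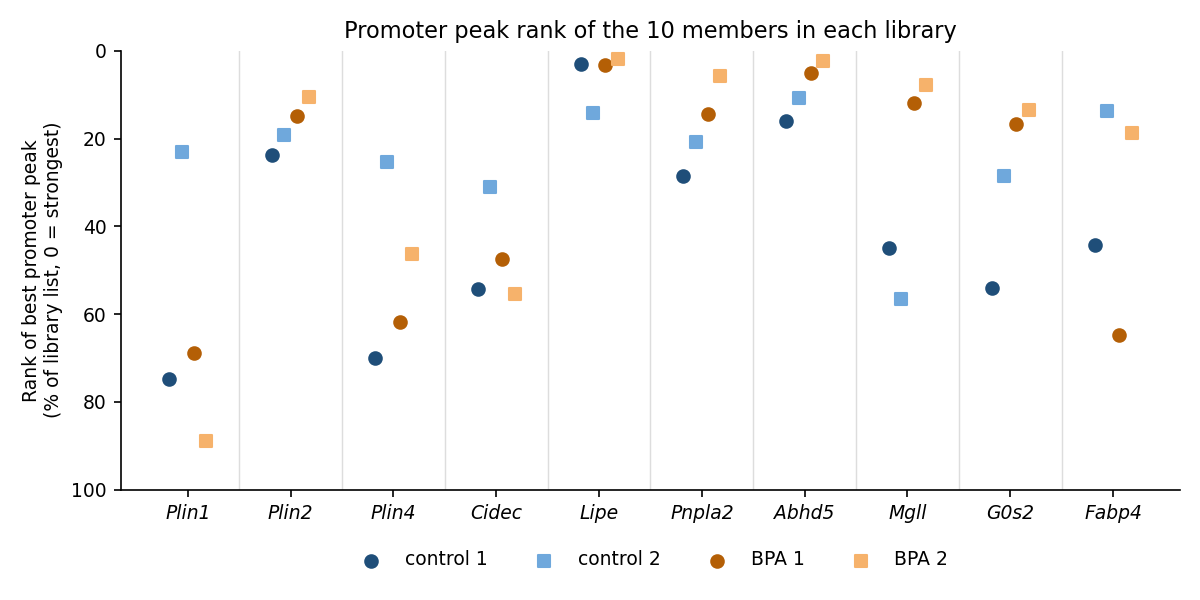
Rank of the best promoter peak of each gene in each library, as a percent of that library's list, with strong peaks at the top of the axis. Each point is 1 library, and Mgll is the gene with the widest gap between the groups, from 44.96% and 56.5% in controls to 11.9% and 7.90% in BPA.

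Promoter sequence differed among the members, and 5 stretches are printed to show how far base composition ranged. The 120 bases before a start site are given from the GRCm38.p6 assembly on the strand of the gene, 5′ to 3′, with CpG dinucleotides in capitals.
Mgll, chr6:88724292-88724411: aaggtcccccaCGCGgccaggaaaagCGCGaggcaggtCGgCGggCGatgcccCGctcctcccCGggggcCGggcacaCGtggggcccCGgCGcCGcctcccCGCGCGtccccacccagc
Abhd5, chr9:122351496-122351615: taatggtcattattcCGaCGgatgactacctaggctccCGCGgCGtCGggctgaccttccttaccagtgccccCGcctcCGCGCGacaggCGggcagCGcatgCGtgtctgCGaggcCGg
Lipe upstream start, chr7:25395988-25396107: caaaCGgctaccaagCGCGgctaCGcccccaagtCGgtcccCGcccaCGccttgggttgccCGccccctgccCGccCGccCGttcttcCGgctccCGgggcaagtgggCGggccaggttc
Lipe downstream start, chr7:25390113-25390232: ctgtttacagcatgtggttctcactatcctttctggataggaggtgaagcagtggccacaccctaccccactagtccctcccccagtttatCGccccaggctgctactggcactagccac
Plin1, chr7:79732777-79732896: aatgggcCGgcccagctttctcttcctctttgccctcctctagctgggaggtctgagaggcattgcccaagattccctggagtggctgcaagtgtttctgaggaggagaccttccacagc
The Mgll and Abhd5 stretches held 17 and 15 CpG dinucleotides. Plin1 held 1. Lipe combined both kinds, with 14 at its upstream start and 1 at its downstream start.

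Among the droplet coat genes, Plin2 stood apart from Plin1, Plin4 and Cidec. Plin2 (chr4:86656565-86670059, minus strand) encodes perilipin 2, a coat protein found in many cell types. Its promoter ranks were 23.8% and 19.2% in the control libraries and 14.8% and 10.4% in the BPA libraries. Both BPA ranks were better than both control ranks, as for 40.7% of all promoters open in the 4 libraries. Plin1 (chr7:79721164-79732776, minus strand) encodes the main coat protein of the adipocyte droplet. Its promoter ranked at 74.8% and 23.1% in controls and at 68.9% and 89.0% in BPA. Control 2 alone was high, and the groups overlapped. Plin4 (chr17:56100587-56109782, minus strand), whose product coats newly formed droplets, showed the same order of controls, with 70.0% and 25.4%, against 61.7% and 46.2% in BPA. Cidec (chr6:113424634-113435760, minus strand), whose product joins small droplets into the single large one of white fat cells, ranked at 54.3% and 31.1% in controls and at 47.5% and 55.4% in BPA. The window of Cidec's downstream start, at position 113434764, was reached by a peak in the BPA libraries only, by the same wide peaks as at its upstream start, at position 113435760.

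Among the lipases, Mgll showed the widest gap and Lipe the strongest promoter. Mgll (chr6:88724412-88828360, plus strand) ranked at 44.96% and 56.5% in controls and at 11.9% and 7.90% in BPA. The fold over local background was 3.41 and 3.25 in controls and 6.86 and 6.80 in BPA, or 3.33 ± 0.118 against 6.83 ± 0.0413 (SD, n = 2 each). Both measures left the groups without overlap. These folds were not normalised between libraries. The median fold over all peaks of a list was 3.91 and 4.29 in controls and 5.69 and 5.01 in BPA, also without overlap. Pnpla2 (chr7:141455188-141460743, plus strand) ranked at 28.6% and 20.8% in controls and at 14.4% and 5.82% in BPA, again without overlap. At Lipe (chr7:25379527-25395987, minus strand) the upstream start ranked at 3.02% and 14.2% in controls and at 3.32% and 1.94% in BPA. Its downstream start gave the opposite order among controls, with 41.8% and 17.1%, against 36.3% and 46.1% in BPA. Control 2 was thus the weakest library at the CpG-rich start and the strongest at the CpG-poor start of the same gene.

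The regulators of the first lipase were both better ranked in BPA. Abhd5 (chr9:122351616-122381523, plus strand) ranked at 15.9% and 10.8% in controls and at 5.16% and 2.33% in BPA. G0s2 (chr1:193272160-193273188, minus strand), the inhibitor, ranked at 54.2% and 28.5% in controls and at 16.8% and 13.4% in BPA. Neither gene's groups overlapped. Fabp4 (chr3:10204342-10208616, minus strand), an adipocyte marker, ranked at 44.2% and 13.8% in controls and at 64.7% and 18.8% in BPA, with wide overlap. In all, 5 of 10 members had both BPA ranks better than both control ranks, and 0 of 10 had the reverse order, which 18.7% of all open promoters had. The share of 5 in 10 was near the 40.7% of all open promoters. The median over members of the rank difference was -7.44 percentage points (BPA minus control), less than the pooled spread of 11.5 points (SD) between libraries of a group. It was -11.7 without control 2, past that spread. Over the 8 members left when a −log10 q-value of at least 5 was asked of each peak, it was -17.9. Those ranks were percents of shortened lists, so that value cannot be set against the spread. Without control 2 the rank differences of Fabp4, Plin4 and Cidec changed sign, from 12.8, 6.25 and 8.77 points to -2.41, -16.04 and -2.81. Ranks were not tested, since the smallest two-sided p that exact permutation of 2 against 2 libraries allows is 0.333.

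A limma test on quantile-normalised log2 of the −log10 q-value, fitted over the 12166 promoters open in all 4 libraries, called 2 of the 10 members. Over all promoters 8.06% were called higher and 8.03% lower in BPA. Mgll was stronger in BPA by 1.78 on the log2 scale (SE 0.42, adjusted p = 0.0122 by limma). Abhd5 was stronger by 0.93 (SE 0.29, adjusted p = 0.0385 by limma). The other 8 passed in neither direction. The log2 differences were 0.69 for Pnpla2, 0.69 for G0s2, 0.57 for Lipe and 0.05 for Plin2. They were -0.90 for Plin4, -0.9996 for Cidec, -1.18 for Fabp4 and -1.66 for Plin1, whose adjusted p was 0.161. The median over members was 0.31, against 0.01 over all promoters tested. Both calls ended when the fold over local background replaced the −log10 q-value, where Mgll was at 0.45 and Abhd5 at 0.43 (adjusted p = 0.210 and 0.143 by limma). Abhd5 also lost its call without a mean-variance trend (adjusted p = 0.0984 by limma). Whether either gene was called also depended on which library was left out. Each such fit left a single library in 1 group, so no p-values are given for them. Mgll stood at 1.79 without BPA 1 and 1.69 without BPA 2, and at 1.94 without control 1 and 1.71 without control 2. Abhd5 stood at 1.06, 0.81, 0.66 and 1.17 in the same order. Without control 1, Plin1, Plin4, Cidec and Fabp4 stood at -3.10, -2.11, -1.74 and -2.20, and Lipe at 1.08. Without control 2, Pnpla2 stood at 1.03 and G0s2 at 1.34. With all libraries, median scaling in place of quantile normalisation called Plin1 lower (-2.40, adjusted p = 0.0138 by limma). In the main fit, at an unadjusted p under 0.05, limma gave the same 2 members, Mgll and Abhd5, higher and 0 lower. Of all 12166 promoters, 3985 passed that threshold in either direction, a larger share.

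**Figure D2:**
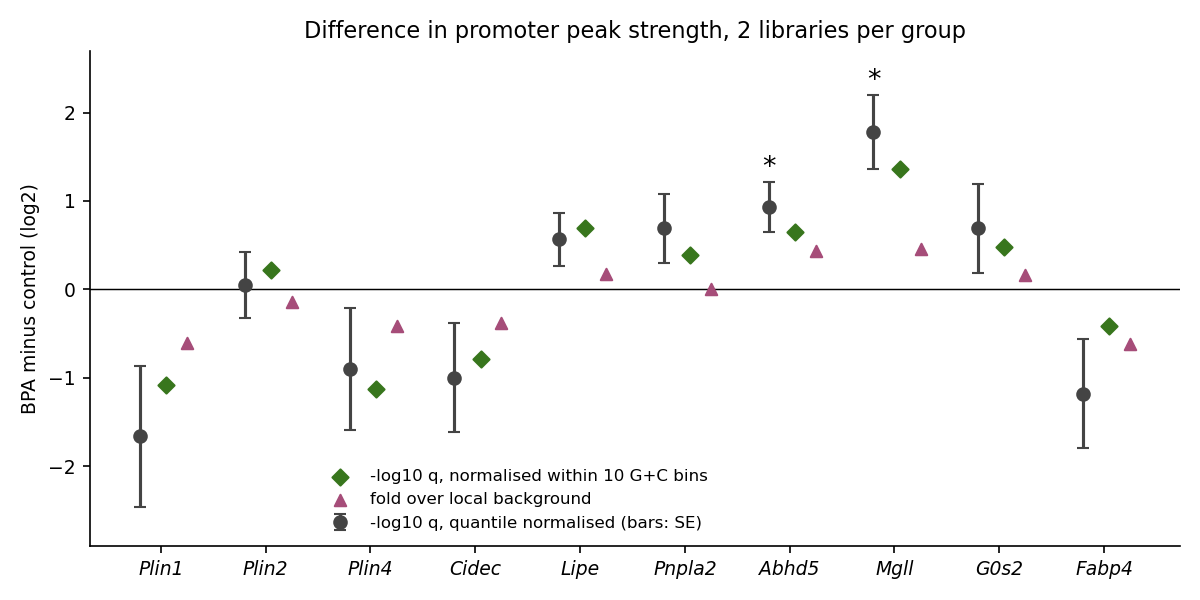
Difference in promoter peak strength between BPA and control on the log2 scale, 2 libraries per group. Circles with SE bars are the −log10 q-value after quantile normalisation, with an asterisk at an adjusted p under 0.05 by limma. Diamonds were normalised within bins of G+C. Triangles use log2 of the fold over local background, a different quantity, so their size cannot be set against the circles. Mgll was at 1.78 by the circle and at 0.45 by the triangle.

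Strength differences varied with the G+C content of the promoter over all genes, and the members lay on both sides of that trend. When the 12166 promoters were divided into 5 classes of about equal size by G+C content, the median log2 difference went from -0.50 in the lowest class, through -0.16, 0.05 and 0.21, to 0.30 in the highest. The share called lower in BPA went from 22.4% to 1.15%, and the share called higher from 2.38% to 13.7%. Plin1 (46.9% G+C) and Fabp4 (42.2%) lay in the lowest class, and Abhd5 (67.1%) and Mgll (66.7%) in the highest. Quantile normalisation within 10 bins of G+C, an alternative added after the data had been seen, left Mgll at 1.36 (adjusted p = 0.0477 by limma) and Abhd5 at 0.65 (adjusted p = 0.148 by limma). Fabp4 moved from -1.18 to -0.41 and Plin1 from -1.66 to -1.09. Against the median of their own class, Mgll lay 1.48 higher, Lipe 0.73 higher, and Plin4 and Plin1 had differences of -0.96 and -1.17. The G+C content of a gene was the mean over its start sites. For Lipe these had 57.7% upstream and 55.1% downstream. The upstream start held the tested Lipe peak and by itself would lie in the middle class. The part that G+C content had in these results was not tested beyond this alternative.

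**Figure D3:**
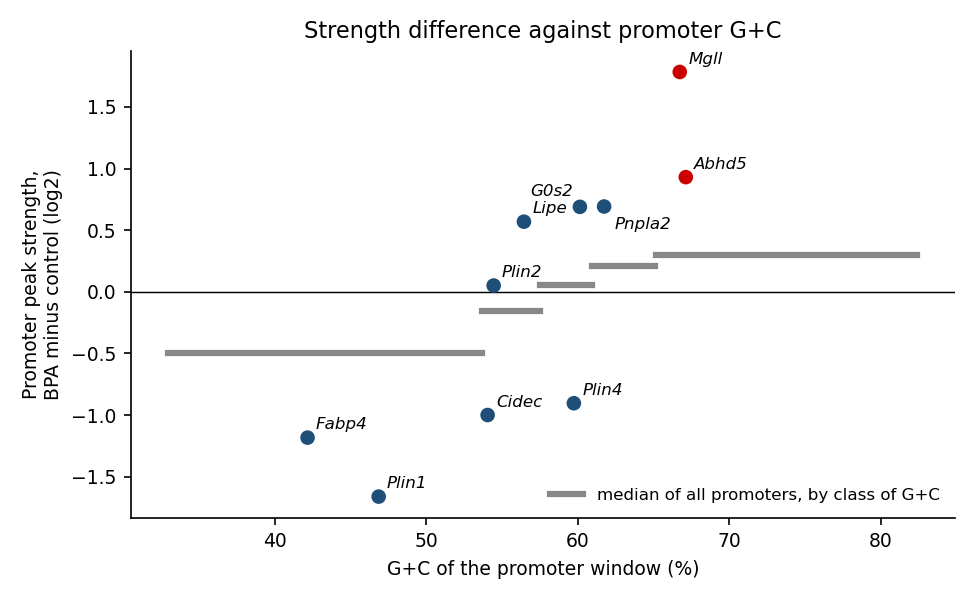
Log2 difference in promoter peak strength (BPA minus control) against the G+C content of the promoter window, averaged over a gene's start sites. There is 1 point per gene, red where the adjusted p was under 0.05 by limma. Grey bars mark the median of all tested promoters in each of 5 classes of G+C content, rising from -0.50 to 0.30.

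The loci, from 20 kb upstream of the first start site to the end of the gene, held 70 of the 147146 regions made by merging overlapping peaks of the 4 libraries. Of these, 11 were promoters of the members, 22 had their summit upstream, 31 in an intron and 6 in an exon. A promoter of another gene accounted for 8 of them. Control 1 had peaks in 40 of the 70, control 2 in 49, BPA 1 in 53 and BPA 2 in 60. The means were 44.5 ± 6.36 in controls and 56.5 ± 4.95 in BPA (SD, n = 2 each), and the groups did not overlap. Upstream regions numbered 16, 20, 19 and 19 in the same order of libraries, and intronic regions 10, 16, 19 and 26. The gap between groups lay mostly in introns, and mostly in those of Mgll, the longest of the genes at 103949 bp. The Mgll locus had 8 and 11 regions with a peak in controls and 16 and 20 in BPA, of 22 in all. No other locus differed between groups by more than 1.5 regions on average.

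**Figure D4:**
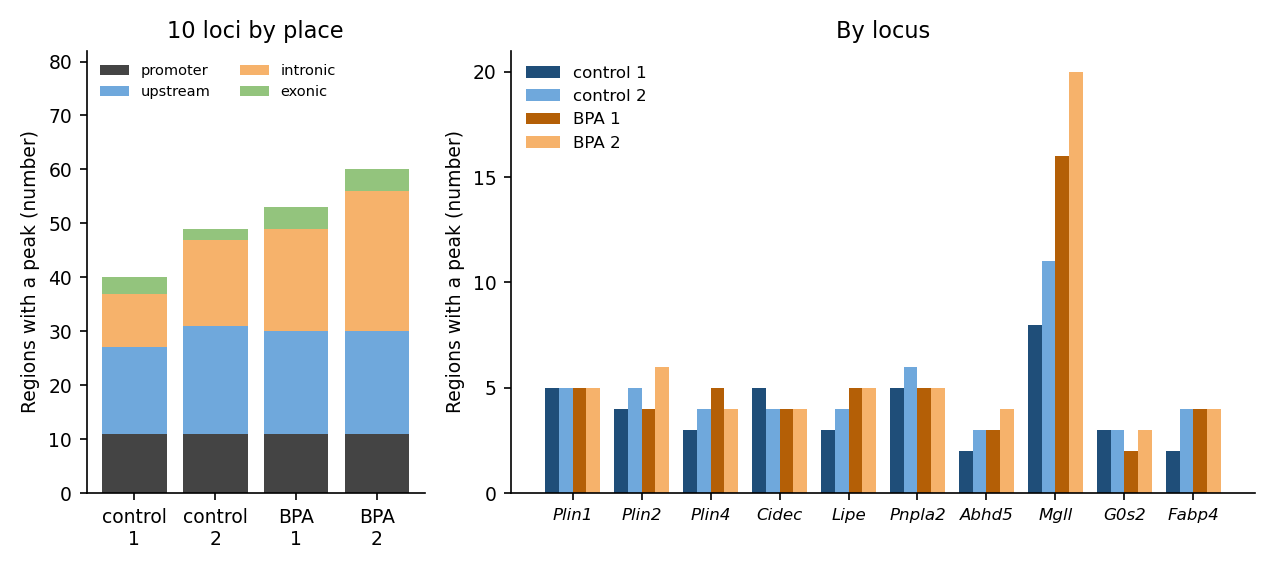
Number of merged regions with a peak in each library. The left panel stacks the 10 loci by the place of the summit, from 40 regions in control 1 to 60 in BPA 2, and the right panel splits the same regions by locus, where Mgll rises from 8 and 11 in controls to 16 and 20 in BPA.

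Of the 70 regions, 34 (48.6%) were open in all 4 libraries, against 26.3% of all merged regions. The 70 included 11 member promoters and 8 regions at promoters of other genes, and no share of all regions was matched to this make-up. A further 8 (11.4%) were open in both BPA libraries and no control library, against 9.4% of all regions. All 8 were among the 51 regions at no promoter, 15.7% of those. Only 2 (2.86%) were open in both control libraries and no BPA library, against 5.33%. Mgll held 6 of the 8 BPA-only regions. They began 47730 bp after the first start site, in introns 3, 3, 3, 5 and 6 and in an exon near the 3′ end, at distances of 47730, 54056, 68172, 85188, 96709 and 103316 bp. Their ranks were weak, between 45.2% and 96.15% in BPA 1 and between 47.5% and 89.8% in BPA 2. The other BPA-only regions lay 6915 bp upstream of Lipe, ranked at 60.02% and 42.8%, and in intron 4 of Abhd5, ranked at 98.6% and 67.0%. Without Mgll, the remaining 48 regions held 2 BPA-only and 2 control-only regions. The control-only regions lay 3165 bp upstream of Cidec, ranked at 57.8% and 31.4%, and in intron 1 of Abhd5, ranked at 46.9% and 97.3%. Equal numbers of peaks in every list left 5 BPA-only regions and 2 control-only regions, and when replicate peaks had to share 50% of their length the numbers were 3 and 1.

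**Figure D5:**
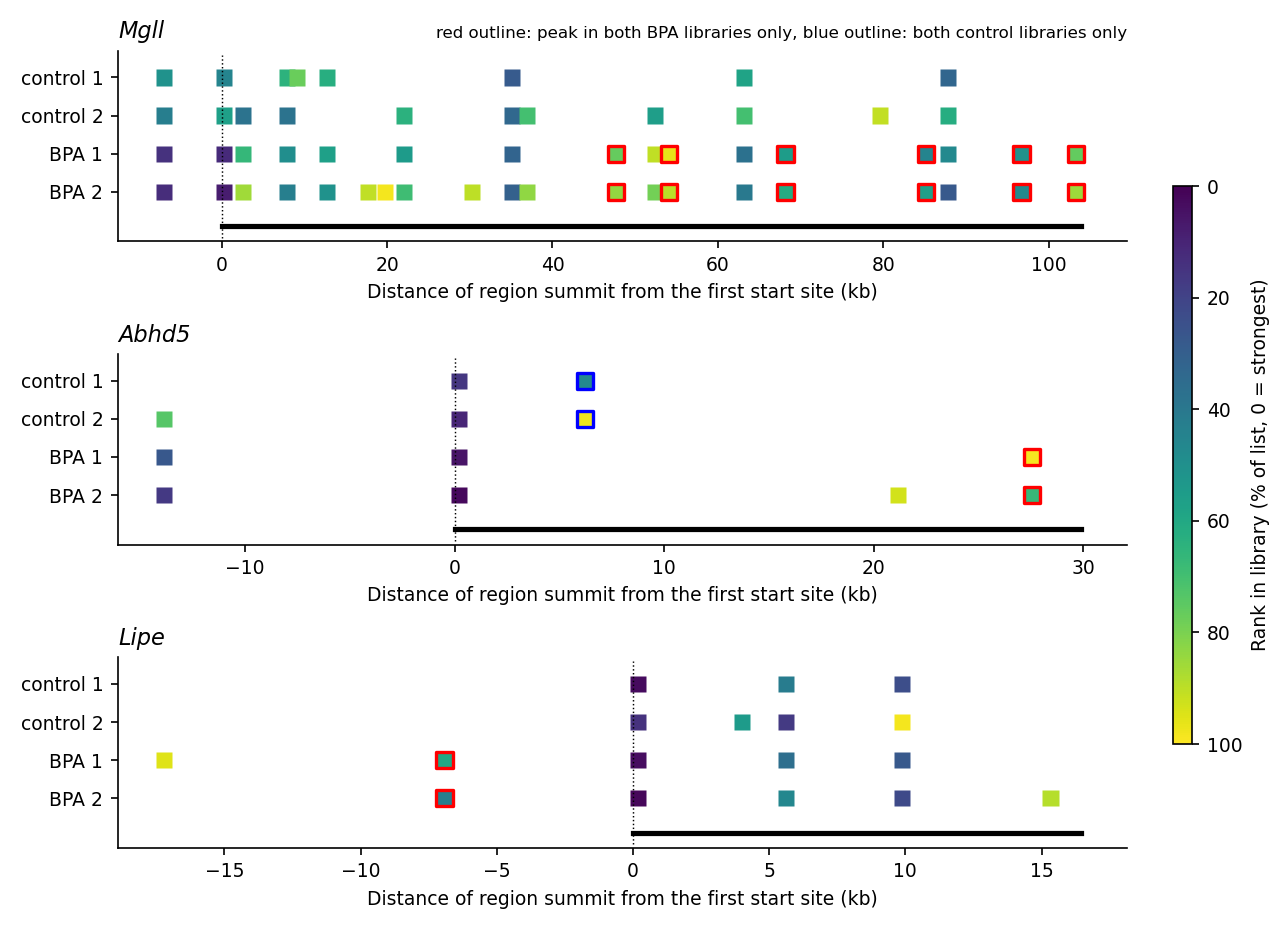
Regions with a peak in each library along the Mgll, Abhd5 and Lipe loci, by distance of the summit from the first start site in kb. Colour gives the rank in that library, outlines mark regions found in 1 group only, and the black bar is the gene. In Mgll the 6 regions outlined in red all lie in the part of the gene far from the start.

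Of the 10 regions of 1 group only, 5 are shown by the sequence at their summits, chosen because they held a motif match and lay outside exons. The Lipe region held an NFI match but overlapped an exon, and the other 4 Mgll regions held no match. Each stretch is from the plus strand of GRCm38.p6, with matches to the searched motifs in capitals. A match is a description and not a bound site.
Mgll intron 3, BPA only, AP-1 match, chr6:88772112-88772172: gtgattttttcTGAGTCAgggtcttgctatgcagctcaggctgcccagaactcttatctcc
Mgll intron 5, BPA only, CRE match, chr6:88809570-88809630: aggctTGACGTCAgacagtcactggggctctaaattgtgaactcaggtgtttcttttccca
Abhd5 intron 4, BPA only, CRE and AP-1 matches, chr9:122379105-122379196: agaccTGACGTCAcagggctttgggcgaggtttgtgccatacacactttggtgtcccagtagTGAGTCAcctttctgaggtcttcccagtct
Abhd5 intron 1, control only, C/EBP match, chr9:122357792-122357852: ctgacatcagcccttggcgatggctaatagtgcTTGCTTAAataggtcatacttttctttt
Cidec upstream, control only, AP-1 match, chr6:113438895-113438978: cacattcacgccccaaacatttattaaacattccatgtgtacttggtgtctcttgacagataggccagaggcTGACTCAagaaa
Motifs were searched on both strands within 100 bp of each summit. The cyclic AMP response element, TGACGTCA, was in 2 of the 70 member regions and in 0.417% of all regions, and both member regions, in Mgll intron 5 and Abhd5 intron 4, were BPA only. AP-1, TGANTCA, was in 10 of 70, against 10.2% of all regions. C/EBP, TTGCNNAA, was in 4 of 70, against 13.01% of all. The E-box CACGTG was in 2, against 3.26% of all. The NFI palindrome, with up to 2 mismatches, was in 6, against 12.1% of all, and the glucocorticoid or androgen receptor element, with up to 1 mismatch, was in 0, against 2.21% of all.

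The PPAR/RXR element, AGGTCA repeated with 1 base between and up to 2 mismatches allowed, is the one by which the fat cell regulator PPARγ acts at many droplet genes. It was in 3 of the 70 member regions, against 3.38% of all regions. Of the 3, 2 lay upstream of Plin2 and are printed because they were open in all 4 libraries, and 1 lay in Mgll intron 2. The C/EBP match at the Plin1 promoter is printed beside them.
Plin2, 20273 bp upstream, PPAR/RXR match, chr4:86690267-86690362: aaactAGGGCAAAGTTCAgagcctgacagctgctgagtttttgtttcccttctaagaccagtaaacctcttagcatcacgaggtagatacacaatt
Plin2, 1985 bp upstream, PPAR/RXR and AP-1 matches, chr4:86671986-86672074: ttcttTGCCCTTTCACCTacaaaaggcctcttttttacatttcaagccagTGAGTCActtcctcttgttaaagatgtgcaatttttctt
Plin1 promoter, C/EBP match, chr7:79732899-79732968: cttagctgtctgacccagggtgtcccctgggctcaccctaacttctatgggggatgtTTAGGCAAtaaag
The farther Plin2 region ranked at 42.05%, 14.1%, 12.9% and 7.24% in control 1, control 2, BPA 1 and BPA 2, stronger in 3 of the 4 libraries than the Plin2 promoter itself. Its log2 difference was 1.24 (SE 0.49, adjusted p = 0.113 by limma) and passed in neither direction in the main fit. The nearer one ranked between 44.1% and 68.8%. Fabp4, whose upstream fat enhancer is well known, had a region 5278 bp upstream that ranked at 34.2%, 13.1%, 13.2% and 8.91%. That region, too, ranked better than the promoter of its gene in every library.

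A second limma test over the 38725 regions open in all 4 libraries included 34 of the member regions and called 6 higher and 0 lower in BPA, with 10 higher and 0 lower at an unadjusted p under 0.05. Over all regions 5.74% were called higher and 4.97% lower. At an unadjusted p under 0.05 by limma, 11310 of the 38725 passed in either direction, about the same share as among the 34 member regions. The largest difference was not at a promoter. A region over the last part of Plin1, chr7:79721116-79722710, with its summit in an exon 11124 bp from the start site, ranked at 75.4% and 74.9% in controls and at 12.9% and 12.2% in BPA. It was stronger in BPA by 2.92 on the log2 scale (SE 0.55, adjusted p = 0.0105 by limma), while the promoter of the same gene had a log2 difference of -1.10 in this fit (adjusted p = 0.339 by limma). It was the only member region still called on the fold scale (1.08, adjusted p = 0.0305 by limma). It stood at 2.86 and 2.92 without BPA 1 or BPA 2, and at 2.98 and 2.88 without control 1 or control 2. Whether it was called depended on which library was left out.

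At Mgll the promoter region (2.34) and a region 6990 bp upstream (1.76, SE 0.50, adjusted p = 0.0378 by limma) were called. The upstream region ranked at 51.0% and 42.5% in controls and at 14.4% and 12.7% in BPA. The Abhd5 promoter region was called at 1.23. These Mgll and Abhd5 promoter regions held the same peaks as in the promoter test, so their calls were not separate results. The other 2 called regions lay in the Pnpla2 locus but at promoters of its neighbours Slc25a22, a mitochondrial glutamate carrier (1.80), and Rplp2, a ribosomal protein (1.28). Fitting without a mean-variance trend ended all 6 calls, and on the fold scale only the Plin1 region was called. Whether the 6 were called also depended on which library was left out. Normalisation within bins of G+C ended 3 of the 6, with the Mgll promoter region at 1.45, the Abhd5 promoter region at 0.64 and the Slc25a22 promoter at 0.89 (adjusted p = 0.0509, 0.181 and 0.169 by limma). It added a call at the region 20273 bp upstream of Plin2, which made 4 member regions. Of the Mgll introns, 4 regions were open in all 4 libraries, and none was called. Their log2 differences were 0.23 at 7927 bp, -0.0014 at 35154 bp, 0.97 at 63196 bp and 0.43 at 87819 bp. The one at 63196 bp ranked at 58.0% and 70.1% in controls and at 37.4% and 40.5% in BPA, without overlap of the groups (SE 0.60, adjusted p = 0.300 by limma).

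The wider list held 34 other genes of droplets and lipolysis, all of which were matched. A promoter peak was present in every library for 30 of them and in no library for 4: Plin5, Fitm1, Adrb3 and Hsd17b13. Adrb3 encodes the beta-3 adrenergic receptor, through which noradrenaline starts lipolysis in mouse fat, and Plin5 a perilipin of oxidative tissues. None was open in 1 group only. Of the 30, limma called 2 higher and 1 lower in BPA, beside 8.06% and 8.03% of all promoters, so the list was called no more often than promoters in general. Dgat1, which makes triacylglycerol, was higher by 0.81 (adjusted p = 0.0422 by limma), and Agpat2, an acyltransferase of the same pathway, by 1.299 (adjusted p = 0.0370 by limma). Ces1d, a carboxylesterase that hydrolyses triacylglycerol, was lower, with ranks of 12.4% and 10.9% in controls and 41.9% and 28.6% in BPA (-2.06, adjusted p = 0.00617 by limma). By G+C content Ces1d (48.0%) lay in the lowest class, where 22.4% of all promoters were called lower. Agpat2 (68.8%) lay in the highest and Dgat1 (63.2%) in the class below it, where 13.7% and 11.3% were called higher. The median over the list was 0.01. The best mean ranks were those of Rab18 (0.784%), Aup1 (0.922%) and Prkaca (1.95%), the last being the catalytic subunit of protein kinase A.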

How the data were processed

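Groups and replicate numbers came from the sample labels, although the list of BPA 2 was deposited under another replicate number. Per the labels and the study's methods, the authors trimmed reads with Trim Galore, mapped them to mm10 with Bowtie2 2.3.5.1 and ran MACS2 2.2.7.1 separately for every library, with no pooling. The deposited ratio is the fold of the summit's pile-up over local background. The Poisson model of the caller gave the deposited −log10 q-value and the −log10 p-value, with a q-value threshold of 0.05. The deposited score is the −log10 q-value times 10 as a whole number and was not used. The last deposited column gives the summit. The lists hold no read totals, so the depth is unknown except through the pile-up solved from fold and p-value.

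Start sites came from 45756 curated RefSeq transcripts on GRCm38.p6, the assembly behind mm10. A promoter peak overlapped 500 bp either side of a start site, and the best-ranked one counted. Regions were overlapping or touching peaks of the 4 lists, merged, and placed by the summit of their best-ranked peak. Strength was log2 of the −log10 q-value, quantile-normalised over features open in all 4 libraries, and tested with limma 3.58.1 in R 4.3.3 with a mean-variance trend and Benjamini-Hochberg adjustment. Features missing from a library could not be fitted. Other steps used Python 3.11.15 with pandas 2.3.3, numpy 2.4.6 and scipy 1.17.1. Overlaps and the limma fit were tested on simulated data.

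The members, the gene lists and the motifs were chosen with earlier results of these data known. All 10 members were named, with each region called or found in 1 group only. Of the 34 further genes, those without a peak, those called and the 3 with the best mean ranks were named. The other regions described, at Plin2, Fabp4, Lipe and Mgll, were chosen after their values were seen. Markers of adipocytes, endothelium, leukocytes, mesothelium, fibroblasts, epithelium, brown adipocytes, hepatocytes and skeletal muscle were checked. Alternatives were other windows, peak thresholds, list lengths, locus sizes, definitions of a region of 1 group, scalings and measures of strength, a replicate block, and leaving out each library.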

Additional observations from a re-analysis of the deposited data

How the results depend on the processing

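Of 454 values recomputed under an alternative setting, 324 were taken as unchanged. For a count this meant equal to the main count or within a fixed ratio of it. For a rank difference or a number of regions per library it meant within the spread between libraries. For a limma difference it meant the same direction and side of the threshold. Promoter windows of 250 and 1000 bp returned every value unchanged. A minimum −log10 q-value of 5 gave 34 regions per control library and 46 per BPA library, and 1 control-only region. Equal numbers of peaks gave 48.5 regions per BPA library and 5 BPA-only regions. With the best 20000 peaks of each list, 3 member promoters were open in all 4 libraries and 2 in both BPA libraries only. The median rank difference over the 3 members that had a value was -39.6 points, in percents of the shortened lists. In that setting 8 and 16 regions per control and BPA library were left, with 0 control-only regions. A locus of 10 kb upstream gave 37.5 and 48.5 regions per control and BPA library, and 50 kb gave 71.5 and 82.5, with 6 control-only regions. Leaving out regions at promoters of other genes gave 37.5 and 49. When replicate peaks had to share 50% of their length, 3 BPA-only and 1 control-only regions were found. Leaving out 1 library at a time gave 9 to 15 BPA-only and 2 to 5 control-only regions, the higher numbers following from the presence being asked of fewer libraries.

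With a minimum −log10 q-value of 5, ranks were percents of shortened lists, a different scale from the full lists. On that scale the rank difference of Mgll was -69.02 points, beside -40.9 in the full lists, and that of Cidec -5.82, beside 8.77. Without BPA 1 those of Fabp4 (-10.2) and Plin4 (-1.49) were below 0.

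On the fold scale 0 member promoters were called in either direction, and 1 member region was called. Of all promoters 323 and 270 were called higher and lower, and of all regions 487 and 467. At an unadjusted p under 0.05 by limma, 2 member promoters were higher and 2 lower in BPA, beside 2728 of all 12166 promoters in either direction. Median scaling called 1 member promoter lower and 11 member regions higher, with 8190 of all regions higher against 2644 lower, a higher share of 75.6% in place of 53.6%. It placed the median of all regions at 0.21 on the log2 scale. Without a mean-variance trend 1 member promoter and 0 member regions were called higher (8 at an unadjusted p under 0.05), 389 and 455 of all promoters were called higher and lower, and 0 and 0 of all regions, where 10178 had an unadjusted p under 0.05. With normalisation in bins of G+C, added after the data were seen, 1 member promoter and 4 member regions were called higher. Of all promoters 613 and 522 were called higher and lower, and of all regions 1736 and 1224. Leaving out 1 library at a time gave 0 to 4 member promoters higher and 0 to 4 lower, 58 to 1620 of all promoters higher and 179 to 1452 lower, 0 to 11 member regions higher and 0 to 3 lower, and 66 to 7310 of all regions higher and 266 to 6094 lower. The fewest calls came without BPA 2 and the most without control 1. Differences of 3 promoters changed sign under some setting. Plin2 did so on the fold scale (-0.14), where it was not called. When 1 library was left out at a time, Plin2 ran from -0.21 to 0.31 and G0s2 from -0.016 to 1.34. Plin4 ran from -2.11 to 0.076. The cause of these changes was not tested.

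The labels give both groups replicate numbers 1 and 2 without saying that a number marks a shared batch, and the deposited list of BPA 2 carries replicate number 3 in its name, so the numbers are uncertain. Same-numbered libraries deviated from their group means with a correlation of -0.146 over promoters and -0.0331 over regions. With the replicate number as a block, 2 member promoters and 6 member regions were called higher and 0 lower, and the pairing gave 958 and 964 of all promoters and 2583 and 2443 of all regions. The crossed pairing, added afterwards, gave 1526 and 1511 of all promoters and 3692 and 3298 of all regions.

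Only 2 libraries per group limit every comparison, and the lists show no site below the caller's threshold, so a missing peak in a shallow library is not a closed site.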

Other observations

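Other marker promoters were measured beside those of the droplet genes. Retn, which encodes the adipocyte hormone resistin, ranked at 38.7% and 11.4% in controls and at 82.4% and 62.7% in BPA (log2 difference -2.60, adjusted p = 0.0139 by limma). Dio2, the deiodinase that activates thyroid hormone in brown fat, ranked at 16.8% and 16.9% in controls and at 57.6% and 41.9% in BPA (-2.23, adjusted p = 0.00718 by limma). By G+C content Dio2 (42.6%) lay in the lowest class and Retn (54.8%) in the next, where 22.4% and 9.64% of all promoters were called lower. The other 6 adipocyte markers were not called and lay on both sides of 0. Cebpa (0.82, adjusted p = 0.0589 by limma) and Pparg (1.16, adjusted p = 0.0762 by limma) encode regulators of fat cell formation. Adipoq, which encodes adiponectin, was at -1.46 (adjusted p = 0.140 by limma) and Lep, which encodes leptin, at -0.49. Lpl and Lpin1 were at 0.34 and 0.24. Of the other marker lists, fibroblast promoters were open in all 4 libraries for 3 of 3 genes. In the order control 1, control 2, BPA 1 and BPA 2, mesothelial markers were open for 2, 2, 2 and 1 of 3 genes, epithelial for 2, 0, 1 and 1 of 3, brown adipocyte for 2, 3, 2 and 3 of 3, and skeletal muscle for 1 of 3 in each.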
